A study of Caenorhabditis elegans with 3 samples.

Results

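Among the 30000 peaks called on pooled chromatin from embryos carrying tagged BED-3, 33 formed a second tier at protein-coding promoters that was found again in every replicate. Peaks were ranked by the authors' peak signal, and those ranked 590 to 4000 were taken, just below the 589 peaks of the authors' optimal list. Per the deposited file listing, that optimal list drew on the pooled list and on replicates 3 and 4, so replicate 1 entered it only through the pooled reads, whereas the selection here required all 3 replicates. A peak was kept when a summit lay within 100 bp of its own among the 4000 highest peaks of each of the 3 replicate lists. Its summit also had to lie between 1000 bp upstream and 200 bp downstream of the 5′ end of a protein-coding gene. It further had to lie more than 200 bp from any gene of the annotated biotype tRNA, snoRNA, snRNA, rRNA, ncRNA or miRNA. Non-coding genes below are genes of these biotypes, and no other biotype was excluded. The peaks were thus chosen by measured values, namely their signal ranks and summit positions in the 4 lists, and those values are given below as a description only.

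The embryos came from strain OP651, which carries the unc-119 allele tm4063 and the transgene wgIs651, in which bed-3 is joined to TY1, EGFP and 3xFLAG tags beside a rescuing unc-119(+). Mixed-stage embryos of both sexes were obtained by egg bleaching, with the age labelled as 4 hours. Chromatin was sonicated with a Bioruptor to a stated size range of 200 to 800 bp. It was precipitated with an antibody against GFP, although one label field names the antibody as bed-3. The series held 1 group with 3 biological replicates, numbered 1, 3 and 4, so all samples shared the unc-119 mutant background, the rescuing unc-119 and added tagged copies of bed-3. Whole embryos mix many cell types. No precipitate from untagged embryos was analysed here, so no peak below is shown to be a site of BED-3 binding.

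BED-3 is a zinc finger protein of the BED class, known from worm genetics for roles in vulval and epidermal cell division and in moulting. A promoter is the stretch of DNA around a transcription start at which regulators and RNA polymerase II assemble. In C. elegans many transcripts receive a spliced leader at their 5′ end, so the annotated 5′ end of a gene can lie downstream of the place where transcription starts. Genes can also share a promoter region when they are transcribed away from each other (head to head), and closely spaced genes on the same strand can be transcribed together as an operon.

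The DNA under 10 of the 33 summits is shown to let the summit sequences be compared directly. Each line is a window of the pooled summit with 50 bp on either side, written 5′ to 3′ on the strand of the named gene, from the RefSeq genome of the WBcel235 (ce11) build. Capitals mark matches, on either strand, to 5 motifs. They are the GA repeat (GAGAGA), alternating GC (GCGCGC), the GC box of Sp1-type zinc fingers in mammals (CCGCCC), the core of a cyclic AMP response element (TGACGT) and the element written CTGCGTC. The first 8 hold at least 1 match. The last pair, dyf-17 and nlp-81, were taken for their low GC content and hold none.
B0395.3: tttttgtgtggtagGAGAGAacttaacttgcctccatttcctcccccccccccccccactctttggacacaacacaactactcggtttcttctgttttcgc
C05G5.2: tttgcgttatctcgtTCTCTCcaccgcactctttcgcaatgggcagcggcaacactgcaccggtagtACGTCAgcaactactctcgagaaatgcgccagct
Y59A8B.24: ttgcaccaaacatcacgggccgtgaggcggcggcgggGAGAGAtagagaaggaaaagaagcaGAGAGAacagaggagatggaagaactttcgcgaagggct
ndua-1: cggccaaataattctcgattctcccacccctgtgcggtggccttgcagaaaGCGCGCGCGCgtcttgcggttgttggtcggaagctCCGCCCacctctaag
tctn-1: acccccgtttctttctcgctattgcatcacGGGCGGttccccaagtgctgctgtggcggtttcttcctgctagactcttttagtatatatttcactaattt
hel-1: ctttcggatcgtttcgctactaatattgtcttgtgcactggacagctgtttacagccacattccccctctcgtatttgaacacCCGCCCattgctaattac
serp-1.1: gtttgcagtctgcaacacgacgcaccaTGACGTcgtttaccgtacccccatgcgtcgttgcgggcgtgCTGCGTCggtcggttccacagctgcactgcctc
mdt-22: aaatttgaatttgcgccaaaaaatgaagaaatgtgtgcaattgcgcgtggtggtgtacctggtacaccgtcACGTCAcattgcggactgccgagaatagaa
dyf-17: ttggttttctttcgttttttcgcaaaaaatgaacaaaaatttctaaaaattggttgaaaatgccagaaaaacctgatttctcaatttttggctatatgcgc
nlp-81: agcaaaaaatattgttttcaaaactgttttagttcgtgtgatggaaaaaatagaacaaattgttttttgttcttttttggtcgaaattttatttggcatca

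These windows lay at chrX:16040460-16040560 (minus strand) for B0395.3, chrX:14747104-14747204 (plus strand) for C05G5.2 and chrV:17951448-17951548 (plus strand) for Y59A8B.24. Those of ndua-1, tctn-1 and hel-1 lay at chrV:20852152-20852252 (minus strand), chrIV:4748462-4748562 (minus strand) and chrII:8329147-8329247 (minus strand). The serp-1.1 and mdt-22 windows lay at chrX:15841250-15841350 (plus strand) and chrII:10301095-10301195 (plus strand). The windows without a match lay at chrV:19127007-19127107 (plus strand) for dyf-17 and chrIV:3176727-3176827 (minus strand) for nlp-81. In the Y59A8B.24 window the GA repeat occurred on both sides of the summit, and in the ndua-1 window 3 overlapping GCGCGC matches formed 1 run that began 1 bp past the summit. A match is a description of the letters present and does not show that a factor binds there.

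Few second-tier peaks were found in every replicate. Of the 3411 pooled peaks ranked 590 to 4000, all on nuclear chromosomes, 74 (2.17%) had a matching summit in all 3 replicates. Coding promoter peaks away from non-coding genes numbered 955, of which the 33 made up 3.46%, and the other second-tier peaks had 41 of 2456 (1.67%). Among coding promoter peaks ranked 1 to 589, 128 of 184 (69.6%) met the same matching condition, and 0 of 5554 (0%) did so below rank 4000. Taken per gene, the 33 peaks belonged to 33 of 19973 nuclear coding genes (0.165%). These shares follow from the selection itself and nothing further was read from them.

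The remaining 922 second-tier coding promoter peaks fell short in different ways. Of the 955, 510 (53.4%) were found in 1 replicate only, 196 (20.5%) in 2 replicates and 216 (22.6%) in none. Replicate 4 held 486 of the 955 (50.9%), replicate 1 held 280 (29.3%) and replicate 3 held 235 (24.6%). A miss in replicate 3 alone kept 99 peaks out, against 61 for replicate 1 alone and 36 for replicate 4 alone. When every peak of each replicate list was allowed, 262 of the 955 (27.4%) were found in all 3. All of these lists share a control alignment, and the pooled list contains the reads of the replicates, so a match is not an independent observation.

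The share found in every replicate fell with pooled rank. It was 24 of 24 peaks (100%) at ranks 1 to 149, 41 of 45 (91.1%) at ranks 150 to 299, 41 of 57 (71.9%) at ranks 300 to 449 and 22 of 58 (37.9%) at ranks 450 to 589. In the second tier it was 21 of 77 (27.3%, exact 95% interval 17.7 to 38.6) at ranks 590 to 799 and 11 of 102 (10.8%, 5.51 to 18.5) at ranks 800 to 1099. At ranks 1100 to 1499 it was 1 of 125 (0.80%), the peak of wdr-46, and none was found in all 3 among the 140 peaks at ranks 1500 to 1999, the 265 at ranks 2000 to 2999 and the 246 at ranks 3000 to 4000. Exact intervals here and below are Clopper-Pearson intervals over peaks and cover counting error only.

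**Figure D1:**
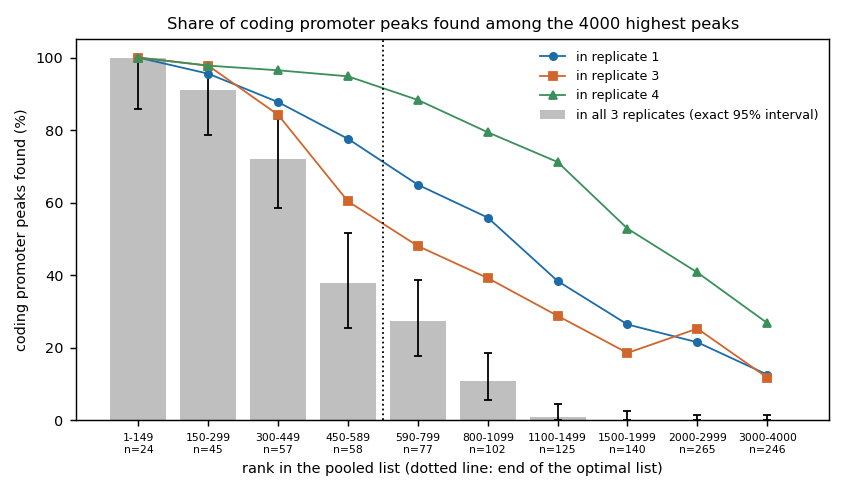
Share of coding promoter peaks (vertical axis, %) found among the 4000 highest peaks of each replicate (lines) and of all 3 replicates (bars, with exact 95% intervals), by rank in the pooled list (horizontal axis, with the number of peaks per bin). Bars fall to 27.3% and 10.8% in the first second-tier bins, right of the dotted line at the end of the optimal list, and replicate 4 has the highest or joint highest share in every bin.

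At the upper end the 33 peaks passed without a step in signal into peaks that were left out. At the lower end wdr-46 stood apart from the others, which ended at rank 1091. Peaks left out also lay among the 33, since 243 second-tier coding promoter peaks of rank 1392 or better were not found in every replicate. The first peaks inside were those of ppm-1.G at rank 603 (signal 121), mars-1 at rank 618 (119), Y71H2AM.20 at rank 629 (118) and tub-2 at rank 632 (118). Just above the limit, and so outside, stood coding promoter peaks of prpf-4 at rank 589 (122), nsf-1 at rank 585 (123), hst-2 at rank 574 (125) and F54D11.4 at rank 567 (126), which were also found in all 3 replicates. The last inside were F01F1.3 at rank 1078 (91.7), vps-28 at rank 1090 (91.4), Y54E5A.5 at rank 1091 (91.4) and wdr-46 at rank 1392 (84.4). Next below came F54D10.5 at rank 1394 (84.4), found in replicate 4 only, and then nefr-1, F46H5.2 and taf-7.2 at ranks 1403, 1405 and 1408, each found in 2 replicates.

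Within the 33, ranks varied widely from replicate to replicate. Pooled signal ran from 84.4 to 121 with a median of 106, and pooled rank from 603 to 1392 with a median of 773. Ranks ran from 435 to 3918 in replicate 1 (median 1930), from 455 to 3968 in replicate 3 (median 1364) and from 528 to 3451 in replicate 4 (median 1253). Replicate 1 gave the worst rank of 15 of the peaks, replicate 3 of 8 and replicate 4 of 10. The worst rank was a median of 3.20 times the best rank. Only 8 of the 33 stood among the 2000 highest peaks of every replicate, and ranks of 589 or better within a replicate's own list were reached by 2 peaks in replicate 1, 3 in replicate 3 and 1 in replicate 4. Signal in replicate 4 ran from 40.0 to 75.8, against 22.5 to 42.8 in replicate 1 and 22.7 to 38.9 in replicate 3, but each list has its own scale and signals were not compared across lists.

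**Figure D2:**
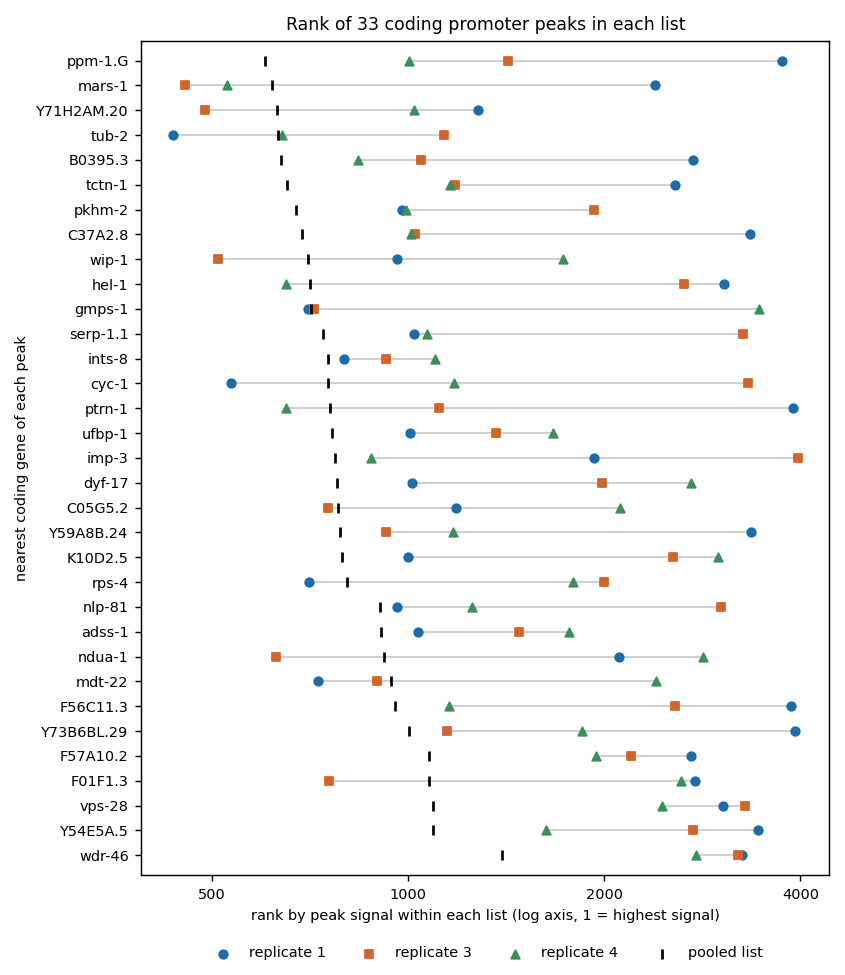
Rank by peak signal (horizontal axis, logarithmic, 1 is the highest signal) of the 33 peaks in each replicate list and in the pooled list, 1 row per peak in pooled order. The pooled ranks lie between 603 and 1392, while the replicate ranks of a single peak differ by 1.18-fold (wdr-46) to 6.20-fold (cyc-1).

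The 33 genes are taken here by the role of their annotated product, an order set by hand for reading and not a test of any theme. Among genes of RNA metabolism and protein synthesis, the peak of mars-1, the cytoplasmic methionine–tRNA ligase, lay at chrIV:11635584-11636039 and ranked 2394, 455 and 528 in replicates 1, 3 and 4, so replicate 1 stood apart from the other two. The peak of rps-4, a protein of the small ribosomal subunit, ranked 705, 1996 and 1793. The peak of hel-1, an RNA helicase homologous to human DDX39B of messenger RNA splicing and export, ranked 3052, 2655 and 649. For ints-8, a subunit of the Integrator complex that cleaves nascent RNAs, the ranks were 796, 926 and 1101, among the closest of the set. The peak of mdt-22, a Mediator subunit linking regulators to RNA polymerase II, ranked 728, 896 and 2404. That of wdr-46, a WD repeat protein whose yeast relative acts in ribosome assembly, ranked 3259, 3204 and 2761, the smallest spread and the lowest pooled signal of the 33. Y73B6BL.29, annotated as a tRNA pseudouridine synthase, ranked 3918, 1146 and 1846, and F01F1.3, which has an MIF4G domain of the kind found in translation factors, ranked 2759, 756 and 2619.

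Among metabolic and mitochondrial genes, the peak of cyc-1, cytochrome c1 of respiratory complex III, ranked 535, 3318 and 1175 in replicates 1, 3 and 4, the widest spread of the set. That of ndua-1, a subunit of complex I, ranked 2106, 626 and 2831. Those of the purine synthesis enzymes gmps-1 and adss-1 stood apart from each other, with ranks of 702, 716 and 3451 for gmps-1 (GMP synthase) and 1035, 1481 and 1765 for adss-1 (adenylosuccinate synthetase). Each replicate thus held some of these peaks high and others low. B0395.3, which has a choline/carnitine acyltransferase domain, ranked 2738, 1048 and 836 at chrX:16040282-16040737. F56C11.3, annotated as a sulfhydryl oxidase, ranked 3872, 2572 and 1156, and Y54E5A.5, with a polysaccharide biosynthesis domain, ranked 3442, 2736 and 1627.

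Other products are annotated to membranes or by a domain alone. The peak of ufbp-1, a DDRGK domain protein of the endoplasmic reticulum, ranked 1005, 1364 and 1670 in replicates 1, 3 and 4. The peak of vps-28, a subunit of the ESCRT-I complex of endosomal sorting, ranked 3042, 3288 and 2452, with a worst rank 1.34 times the best. F57A10.2, which has a major sperm protein domain, ranked 2717, 2201 and 1939, a ratio of 1.40. Less even ranks were seen at other genes. The peak of serp-1.1, a stress-associated protein of the endoplasmic reticulum, ranked 1019, 3265 and 1067, and that of imp-3, an intramembrane protease, ranked 1930, 3968 and 876. C05G5.2, annotated with the FAM21 subunit of the WASH complex on endosomes, ranked 1186, 752 and 2111, and pkhm-2, which has a RUN domain, ranked 978, 1926 and 993.

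A few genes act in the cytoskeleton, in cilia or in neurons. The peak of ptrn-1, patronin, which protects microtubule minus ends, ranked 3899, 1116 and 650 in replicates 1, 3 and 4, with a worst rank 6.0 times the best. The peak of wip-1, a WH2 domain protein that partners the actin regulator WASP, ranked 960, 510 and 1726. For tctn-1, a tectonic of the ciliary transition zone, the ranks were 2568, 1178 and 1159. The worst rank fell in replicate 4 for wip-1 and in replicate 1 for ptrn-1 and tctn-1. The peak of dyf-17, a gene of sensory cilia, ranked 1015, 1981 and 2721, and that of nlp-81, which encodes a neuropeptide-like protein, ranked 962, 3024 and 1253. The peak of tub-2, with a tubby C-terminal domain, ranked 435, 1135 and 640, and 435 was the best rank of any of the 33 in any replicate.

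The rest were signalling genes and genes of unknown function. The peak of ppm-1.G, a protein phosphatase, lay at chrIII:783286-783741 and ranked 3752, 1425 and 1003 in replicates 1, 3 and 4, although its pooled signal of 121 was the highest of the 33. That of Y71H2AM.20, annotated as an activator of the phosphatase PP2A, ranked 1279, 488 and 1020. Genes without a known role were C37A2.8 (ranks 3351, 1025 and 1011), Y59A8B.24 (3363, 925 and 1172) and K10D2.5 (999, 2550 and 2987). A high pooled rank therefore did not require a high rank in each replicate.

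Across 36 lists of genes by function, no list held more than 1 of the 33 genes. A gene of the set was in 7 lists: rps-4 among 83 cytosolic ribosomal protein genes, mars-1 among 31 tRNA synthetase genes, cyc-1 among 128 mitochondrial genes, vps-28 among 119 membrane traffic genes, mdt-22 among 68 genes of the RNA polymerase II machinery, dyf-17 among 59 cilium genes and nlp-81 among 167 synapse and neuropeptide genes. The other 29 lists held none. Together the lists cover 4201 genes, of which these 7 are 0.167%, beside the 0.165% of all coding genes. Genes such as tctn-1 and ndua-1 belong by function with cilia and mitochondria but were not covered by the name patterns of those lists.

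Summits lay mostly upstream of the annotated 5′ ends. By the pooled summit, 31 of the 33 (93.9%, 79.8 to 99.3) were upstream, and 30 were upstream in all 3 replicates. The exceptions were imp-3, with its summit 129 bp downstream in its own coding exon, and F01F1.3, with its summit 6 bp downstream in its own 5′ UTR. The median distance was -221 bp, where negative is upstream, and the quartiles were -322 and -149 bp. Farthest upstream were tctn-1 (-680 bp), nlp-81 (-660 bp), dyf-17 (-468 bp) and Y59A8B.24 (-451 bp). Summits less than 100 bp upstream were those of C37A2.8 (-89 bp), mdt-22 (-71 bp), tub-2 (-62 bp), Y73B6BL.29 (-39 bp) and K10D2.5 (-37 bp). The remaining 22 (66.7%, 48.2 to 82.0) lay between 100 and 400 bp upstream.

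**Figure D3:**
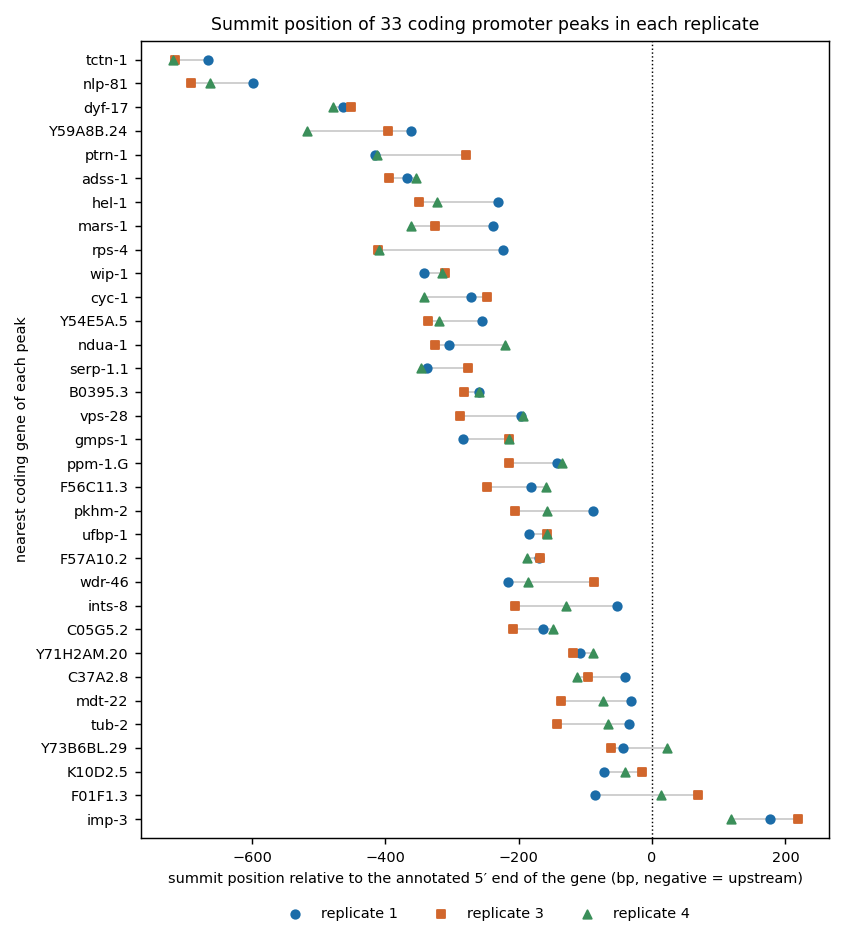
Position of the summit of each of the 33 peaks in replicates 1, 3 and 4 relative to the annotated 5′ end of its gene (horizontal axis, bp, negative is upstream), 1 row per peak, ordered by the pooled position. Grey lines join the 3 replicates, and 30 of the 33 rows lie left of the 5′ end in every replicate.

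In each replicate these summits were more often in the band just upstream than other coding promoter summits of the same list. The 33 had 63.6 ± 5.25% of summits between 100 and 400 bp upstream, against 29.4 ± 1.12% for the other coding promoter peaks of all ranks (mean ± SD, n = 3 replicates). The difference was 30.1 percentage points in the replicate where it was lowest and 41.4 where it was highest. The band was chosen after these values were seen, so the contrast is a description and not a test. Upstream summits made up 93.9 ± 3.03% of the 33 and 80.9 ± 0.34% of the others, and the median distance was -219 ± 26.6 bp against -292 ± 13.2 bp. The SD here reflects only where each replicate placed its summit, since the regions are the same, and with 1 group of 3 replicates no p-value was computed.

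Higher-ranked peaks had a like position, and second-tier peaks not found in every replicate came part of the way. By pooled summits, 120 of 184 coding promoter peaks ranked 1 to 589 (65.2%) lay in that band, 351 of 922 second-tier peaks not found in every replicate (38.1%) and 1584 of 5554 lower peaks (28.5%), beside 66.7% of the 33. The second-tier peaks not found in every replicate were then limited to pooled rank 1392 or better. That limit is the rank of wdr-46, and the next lowest of the 33 ranked 1091. The limited group had a median pooled signal of 93.4, against 106 for the 33, so the groups were not matched in rank. Of the limited group, 110 of 243 lay in the band (45.3%, 38.9 to 51.8). That interval overlaps the interval of the 33 (48.2 to 82.0), which lies above the share of 45.3%. Band and rank limit were both chosen after the values were seen, so no difference is read from these intervals. In that limited group 84.4% were upstream and the median distance was -204 bp. The share of peaks in the band was thus higher at better signal ranks, which the selection used, and the part of rank in the share among the 33 was not tested.

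Replicates placed the summit of the same peak at slightly different bases. The lowest and highest of the 3 summit positions differed by a median of 88 bp, between 20 bp for F57A10.2 and 188 bp for rps-4. For 7 peaks the range was within 50 bp and for 13 it was over 100 bp, where the matching limit of 100 bp to the pooled summit allows up to 200 bp. The median distance from the pooled summit was 43 bp in replicate 1, 29 bp in replicate 3 and 23 bp in replicate 4. Motif matches in a window of this kind can therefore differ between replicates at the same gene.

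Most of these summits lay in DNA between coding genes. This held for 27 of the 33 (81.8%), against 166 of 184 peaks ranked 1 to 589 (90.2%), 673 of 922 second-tier peaks not found in every replicate (73.0%) and 3384 of 5554 lower peaks (60.9%). Introns held 4 summits, and each intron belonged to another gene: cox-6B for Y71H2AM.20, cyc-2.1 for tctn-1, C26D10.3 for hel-1 and clpp-1 for mdt-22. Assignment to the nearest 5′ end does not show which gene a peak regulates.

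A part of the genes shared an upstream region with a gene on the opposite strand. Head-to-head pairs with 5′ ends within 1000 bp involved 10 of the 33 genes (30.3%, 15.6 to 48.7), against 74 of 180 genes with peaks ranked 1 to 589 (41.1%), 190 of 887 with second-tier peaks not found in every replicate (21.4%) and 3539 of 19973 coding genes (17.7%). The interval of the 33 includes the shares of all of these groups, so no difference from them was detectable. Among genes with peaks ranked lower than the second tier the share was 685 of 4763 (14.4%), which lies under that interval. Among genes with second-tier peaks of rank 1392 or better not found in every replicate it was 64 of 239 (26.8%), inside the interval. The part of signal rank in these shares was not tested. The closest pair was F01F1.3 and F01F1.11, with 61 bp between their 5′ ends. At ppm-1.G and dagl-2 the 5′ ends were 398 bp apart, at F57A10.2 and haf-3 403 bp and at gmps-1 and cap-2 476 bp. Wider pairs were F56C11.3 and atm-1 (592 bp), K10D2.5 and prp-19 (675 bp), C37A2.8 and E02D9.1 (778 bp), hel-1 and C26D10.4 (892 bp), Y71H2AM.20 and nduc-2 (904 bp) and wip-1 and larp-1 (989 bp). A peak between such genes cannot be given to either from its position.

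A gene on the same strand ended within 500 bp upstream of 8 of the 33 genes (24.2%, 11.1 to 42.3), against 3615 of 19973 coding genes (18.1%). The shortest gap was 63 bp, between cyc-2.1 and tctn-1. The others were Y48G10A.3 before ints-8 (221 bp), rsp-6 before imp-3 (234 bp), hsp-110 before ufbp-1 (303 bp), dus-2 before Y54E5A.5 (320 bp), eipr-1 before vps-28 (347 bp), ccr-4 before wdr-46 (401 bp) and C54G4.9 before cyc-1 (458 bp). This share too lay within counting error of all coding genes. Several coding 5′ ends stood in the promoter window of 12 of the 33 summits, among them F58B3.6 beside mars-1, Y71G12A.5 beside tub-2 and emb-1 beside K10D2.5.

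The nearest optimal summit to any of the 33 was 1000 bp away, at dyf-17, and the next nearest 1553 bp away, at tctn-1. The same distance was not measured for other peaks, so it cannot be called particular to the 33. A further pooled summit lay within 250 bp of 13 of the 33 (39.4%), against 80 of 184 peaks ranked 1 to 589 (43.5%) and 328 of 922 second-tier peaks not found in every replicate (35.6%). The nearest non-coding gene was 225 bp from the ints-8 summit and a median of 7982 bp from all 33. Every 36 bp stretch in the 33 summit windows was unique in the genome, as was so for 177 of 184 windows ranked 1 to 589 (96.2%) and 872 of 922 second-tier windows not found in every replicate (94.6%).

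By chromosome, 7 of the 33 lay on I, 3 on II, 6 on III, 7 on IV, 5 on V and 5 on X. The share on X was 15.2% (5.11 to 31.9), against 12.2% of the other coding promoter peaks and 13.7% of coding genes. On V it was 15.2%, against 18.8% of the other coding promoter peaks. With 33 peaks these shares carry wide intervals, and those of the 33 on X and V include the share of the other coding promoter peaks.

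GC content at the summits was higher than at other coding promoter peaks. In the replicates' own summit windows it averaged 43.5 ± 1.09% for the 33 and 37.0 ± 1.25% for the others (mean ± SD, n = 3 replicates), and the difference ran between 5.37 and 7.08 percentage points. At pooled summits the mean over the 33 peaks was 46.3 ± 10.3% (SD over peaks), against 47.0 ± 8.94% at ranks 1 to 589, 41.1 ± 10.6% for second-tier peaks not found in every replicate and 36.9 ± 9.41% below rank 4000. Limited to pooled rank 1392 or better, second-tier peaks not found in every replicate had 44.8 ± 10.5%. The 33 peaks were spread from 25.7% at nlp-81 and vps-28 to 68.3%, and the printed nlp-81 window shows the low end. Repeat-masked bases made up a median of 19.8% of each window, against 20.8% at ranks 1 to 589 and 35.6% below rank 4000, and the dyf-17 window was masked throughout.

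Of 18 motifs searched on both strands, 5 had a share among the 33 at least 1.5 times that among the other coding promoter windows, and they are the ones in capitals above. The GA repeat GAGAGA stood in 19.2 ± 3.50% of the windows of the 33 and 7.40 ± 0.41% of the others (mean ± SD over 3 replicates). In single replicates it was 21.2%, 15.2% and 21.2% for the 33, above the others in each. GCGCGC stood in 8.08 ± 3.50% against 2.25 ± 0.51%, and CCGCCC in 9.09 ± 3.03% against 3.30 ± 0.69%. For CTGCGTC the shares were 6.06 ± 5.25% and 1.85 ± 0.49%, and for TGACGT 7.07 ± 4.63% and 3.24 ± 0.43%. At the pooled summits of coding promoter peaks ranked 1 to 589, GCGCGC was in 28 of 184 windows (15.2%), against 3 of the 33 (9.09%), and CCGCCC was in 36 of 184 (19.6%), against 4 of the 33 (12.1%). GAGAGA was in 24 of those 184 (13.0%), against 5 of the 33 (15.2%), so the higher-ranked peaks held these 3 motifs at shares within the intervals of the 33. The differences for CTGCGTC and TGACGT across replicates were smaller than the spread of the 33 between replicates, since 1 peak is 3.03% of the set.

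Part of the difference went with GC content. When the other peaks were weighted to the GC content of the 33 in bins of 5%, their share was 10.5 ± 0.71% for GAGAGA, 4.97 ± 0.11% for GCGCGC, 6.73 ± 0.83% for CCGCCC, 3.27 ± 0.53% for CTGCGTC and 3.98 ± 0.85% for TGACGT. The shares of the 33 stay as given above, so the mean excess narrowed for each of the 5 motifs. For CTGCGTC the difference after weighting was -0.589 percentage points in replicate 1, 9.45 in replicate 3 and -0.506 in replicate 4. In the same order it was 1.14, 7.23 and 0.97 for GCGCGC and 7.67, 0.03 and 1.57 for TGACGT. Outside the highest replicate, these differences were smaller than the 3.03% that 1 peak makes up. The GAGAGA difference was 10.1, 4.50 and 11.5. For CCGCCC the ratio was 1.35, under the 1.5 used. Against the weighted peaks the ACTACAA element passed instead, with a ratio of 2.03 from a share of 2.02 ± 1.75% in the 33. At pooled summits GAGAGA was in 5 of the 33 windows (15.2%, 5.11 to 31.9) and in 36 of the 243 second-tier windows of rank 1392 or better not found in every replicate (14.8%, 10.6 to 19.9). The GA repeat was therefore not detectably more frequent in the 33 than in that group, whose median pooled signal was lower (93.4 against 106). CCGCCC was in 4 of 33 (12.1%, 3.40 to 28.2) against 12 of 243 (4.94%, 2.58 to 8.47), with overlapping intervals. For GCGCGC the shares were 9.09% and 7.41%, for TGACGT 9.09% and 6.58%, and for CTGCGTC 6.06% and 8.23%, where the 33 had the lower share.

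At single genes, the 5 pooled summits with GAGAGA included those of B0395.3, C05G5.2, Y59A8B.24 and F01F1.3. The GC box stood at tctn-1, hel-1, K10D2.5 and ndua-1, and GCGCGC at ndua-1, F01F1.3 and Y54E5A.5. TGACGT was present at serp-1.1, C05G5.2 and mdt-22, and CTGCGTC at serp-1.1 and F56C11.3. In all, 13 of the 33 windows held at least 1 of the 5 motifs and 20 held none. No single motif was thus common to the set.

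**Figure D4:**
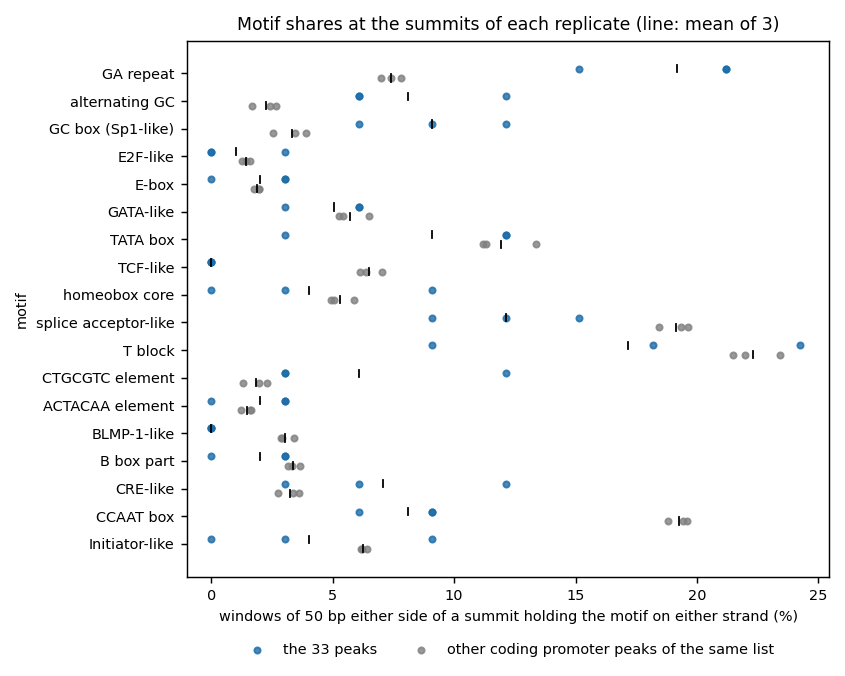
Share of summit windows, each with 50 bp on either side (horizontal axis, %), that hold each of 18 motifs on either strand, with a point per replicate for the 33 peaks (upper points of each row) and for the other coding promoter peaks of the same list (lower points). Short vertical lines are means of 3 replicates, for example 19.2% and 7.40% for the GA repeat and 8.08% and 19.3% for the CCAAT box.

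Among the other motifs, some had lower shares at these summits. CCAAT, the letters of a box near the start of many genes, was in 8.08 ± 1.75% of the windows of the 33 and 19.3 ± 0.42% of the others, and in 18.1 ± 0.96% of the others after weighting by GC content. TTTCAG, which matches the worm splice acceptor, was in 12.1 ± 3.03% against 19.1 ± 0.62%, or 14.8 ± 0.70% after weighting by GC content. After weighting, its difference (-2.64 percentage points) was smaller than the SD of the 33. CTTTGA, the core of TCF sites, was in none of the 33 windows in any replicate, against 6.51 ± 0.47% of the others, or 5.54 ± 0.30% after weighting. TCACTTT, close to published BLMP-1 sites, was in none, against 3.05 ± 0.30%, or 2.45 ± 0.39% after weighting. A count of 0 of 33 allows a share of up to 10.6% by the exact interval. At pooled summits of rank 1392 or better not found in every replicate, CCAAT was in 32 of 243 windows (13.2%, 9.18 to 18.1). It was in 3 of the 33 (9.09%, 1.92 to 24.3), and no difference was detectable there. In those 243 windows CTTTGA was in 3.29%, TCACTTT in 2.88% and TTTCAG in 13.2%. Pooled windows of the 33 held TTTCAG in 2 (6.06%, 0.743 to 20.2) and CTTTGA and TCACTTT in none. At pooled summits of the 184 higher-ranked coding promoter peaks, shares were 2.72% for CTTTGA, 0.543% for TCACTTT, 5.98% for TTTCAG and 13.0% for CCAAT. These shares lie within the intervals of the 33, so the low shares were not shown to be particular to the 33. TATAAA, the TATA box, was in 9.09 ± 5.25% of the 33 against 11.9 ± 1.23%, but after weighting the others were at 8.10 ± 1.57%. The core of GATA factor sites (AGATAA) was in 5.05 ± 1.75% against 5.72 ± 0.69%, and after weighting against 4.23 ± 0.36%. For both motifs the difference was smaller than the spread of the 33 between replicates, and it was of either sign in single replicates. Letters missing from a window say nothing of whether the factor binds.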

How the data were processed

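BED-3 was profiled by ChIP-seq in 3 replicates of 1 group. The authors deposited 5 peak lists in ce11 coordinates, per the labels: 1 per replicate, a pooled list and an optimal list. Each peak carries the deposited signal of the authors' caller, used only to rank peaks within a list. The sources used here do not name the aligner, the caller or the scale of the signal, and read depth was not analysed here. The replicate lists held 26338, 29455 and 30000 peaks for replicates 1, 3 and 4.

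Gene models were those of Ensembl release 115 (WBcel235), and sequence and gene products came from RefSeq. Replicate shares use each replicate's own summits, with windows of 50 bp on either side. The 33 peaks, the gene lists and the motifs were chosen with earlier results of these data known. The band of 100 to 400 bp, the limit at rank 1392, the 36 bp uniqueness count and the host genes were chosen after the values were seen. Named genes were the 12 highest peaks, the 4 at each limit, up to 4 per gene list, the 5 most and 5 least even in rank and the 3 richest in each motif, and the rest are named so that all 33 are accounted for. Alternatives varied matching distance, depth, windows, transcripts, non-coding distance, rank limit, summit and replicates. Scripts (Python 3.11.15, pandas 2.3.3, scipy 1.17.1) were tested on simulated data.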

Additional observations from a re-analysis of the deposited data

How the results depend on the processing

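The number of peaks depended on how a match was defined. It was 10 with summits matched within 50 bp and 72 within 200 bp, 8 with the 2000 highest peaks of each replicate and 262 with all peaks, beside 33 as reported. Leaving out a replicate from the matching gave 69 to 132 peaks, with 94 without replicate 1, 132 without replicate 3 and 69 without replicate 4, although its reads stay in the pooled list. The share upstream (93.9%) was 100% at the 2000 highest peaks, 84.6% with all peaks, 89.2% with a promoter window from 2000 bp upstream to 500 bp downstream, and 86.7% to 90.2% without a replicate. The median distance (-219 bp) was -170 bp at the 2000 highest peaks and -252 to -198.5 bp without a replicate. GC content (43.5%) was 41.2% with all peaks, 41.0% in windows of 100 bp on either side, 46.3% at pooled summits and 42.1% to 44.8% without a replicate. Motifs past 1.5 times the other peaks numbered 1 rather than 5 at the 2000 highest peaks and 4 to 6 without a replicate. The GA repeat share (19.2%) was 8.33% at the 2000 highest peaks, 11.8% with all peaks, 13.3% without replicate 1, 15.2% at pooled summits, 6.06% in 51 bp windows and 29.3% with 100 bp on either side. Head-to-head genes were 12.1% within 500 bp and same-strand genes 3.03% within 200 bp. The gene lists and the share on chromosome X kept within their intervals under every alternative run, and 29 of 127 recomputed values moved by more than the replicate SD, the interval or 1.5 times a count. Limiting pooled rank to 590 to 2000 kept the same 33 peaks by construction, since the last ranked 1392. Weighting by GC content left 5 motifs by mean share, with ACTACAA in place of CCGCCC. Of these, CTGCGTC exceeded the weighted peaks in replicate 3 only. The cause of these moves was not tested, beyond the number of peaks each rule admits. Read depth was not analysed here, so precision rests on 33 peaks and 3 replicates. No paired analysis was possible because the series has 1 group.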
